A study of Mus musculus with 18 samples.

Results

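Astn2, Lingo2 and Ephb1 encode membrane proteins best known from neurons, and their transcripts were followed here in kidney glomeruli of mice that lack PTIP in podocytes. The genes were chosen by symbol. Each had 1 probe set among the 58 probe sets of the deposited table, so 3 of 58 probe sets are described, with the 5 Ntrk3 probe sets as a reference. A probe set is a group of array probes against 1 transcript region, and its value is given on a log2 scale after robust multiarray averaging (RMA), on which a step of 1 is a 2-fold difference.

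Glomeruli were enriched by sieving from single mice, and the RNA of 8 PTIP+ and 10 PTIP- mice was hybridised to Affymetrix mouse 3′ expression arrays, with 1 array per mouse. PTIP- mice were Paxip1 fl/fl or fl/- and carried Pod-Cre, a Cre transgene that is active in late developing and mature podocytes. PTIP+ mice were Paxip1 fl/fl or fl/- littermates without Cre. They are labelled wild-type, although they carry floxed alleles and some also carry a null allele. Mice with Cre and intact Paxip1 were not analysed here. The growth protocol gives 4 weeks as the age of all mice, whereas the stage label differs for each sample, from 1 to 18 months; the stage label was not used. The fractions also contain endothelial and mesangial cells. Of 36 marker genes for podocytes and 7 other cell types, 0 had a probe set in the table, and neither had Paxip1, so that tissue, cell composition and deletion could not be checked on these values. In such bulk samples, fewer cells of a type and less RNA per cell cannot be told apart.

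The table holds probe sets that the authors selected on these same arrays for a difference between PTIP+ and PTIP- mice of at least 2-fold. The 3 genes therefore had to differ, and the tests below describe the size and spread of their differences and are not independent evidence that they exist. The numbers in the scan names fall into 3 series, which the labels do not call batches. PTIP+ replicate 5 and PTIP- replicate 7 carry the same number, and a fit without both gave log2 fold changes of -1.47 for Astn2, -0.86 for Lingo2 and -0.88 for Ephb1. In series 1 there are 3 mice of each genotype, in series 2 there are 2 PTIP+ with 4 PTIP- mice, and series 3 again has 3 of each. Differences are given within each series as well as over all arrays. The array weights that limma estimated were low in most of series 2, at 0.379 and 0.447 for PTIP+ replicates 4 and 5 and at 0.517, 0.259 and 0.368 for PTIP- replicates 5, 6 and 7, against 1.63 for PTIP- replicate 4. PTIP- replicate 2 of series 1 also had a low weight, at 0.506. The weights were estimated from the 58 probe sets alone, so this fit is not the one by which the authors selected them.

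Podocytes and neurons both extend processes from the cell body, and both use transmembrane receptors and adhesion proteins to shape contacts with neighbouring cells. Astn2 (astrotactin 2) is a membrane protein of neuronal migration along glial fibres, and it regulates which adhesion proteins stay at the cell surface. Lingo2 has leucine-rich repeats and an immunoglobulin domain outside the cell, and is a relative of Lingo1, a part of the Nogo receptor complex that limits axon growth. Ephb1 is a receptor tyrosine kinase for ephrin-B ligands and guides axons by contact. Ntrk3 (TrkC), the reference, is the receptor tyrosine kinase for neurotrophin 3. PTIP, the product of Paxip1, is an adaptor of a histone H3 lysine 4 methyltransferase complex, a class of enzyme that marks active promoters.

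The 250 bases before each annotated start of the 3 genes are shown because all had lower values in PTIP- mice and this class of enzyme marks active promoters. The windows do not show where the mark lies, and which annotated start is used in glomeruli was not tested. No chromatin data were analysed here. Of the 4 genes looked up in the RefSeq promoter table of GRCm38.p6, including Ntrk3, 3 were matched. All windows lie on the minus strand: Astn2 at chr4:66404484-66404733, Ephb1 at chr9:102354694-102354943, and Lingo2 at chr4:36718964-36719213 (entry 1) and chr4:35845205-35845454 (entry 2). Capitals mark GGGCGG, the core of the GC box, which was searched on both strands together with TATAAA.
Astn2: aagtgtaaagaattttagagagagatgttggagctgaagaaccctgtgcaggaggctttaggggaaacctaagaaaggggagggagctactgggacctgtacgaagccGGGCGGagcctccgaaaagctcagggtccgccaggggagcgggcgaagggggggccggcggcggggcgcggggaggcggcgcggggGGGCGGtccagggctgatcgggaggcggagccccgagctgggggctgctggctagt
Ephb1: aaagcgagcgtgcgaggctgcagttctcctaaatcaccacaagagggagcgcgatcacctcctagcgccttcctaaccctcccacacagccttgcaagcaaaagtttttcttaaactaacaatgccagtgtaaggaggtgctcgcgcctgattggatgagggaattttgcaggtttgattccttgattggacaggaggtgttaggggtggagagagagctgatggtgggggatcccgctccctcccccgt
Lingo2, entry 1: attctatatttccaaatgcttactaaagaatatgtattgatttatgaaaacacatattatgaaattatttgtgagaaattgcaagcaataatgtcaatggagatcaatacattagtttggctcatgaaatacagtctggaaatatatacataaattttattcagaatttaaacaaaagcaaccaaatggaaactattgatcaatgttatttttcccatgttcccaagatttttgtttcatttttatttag
Lingo2, entry 2: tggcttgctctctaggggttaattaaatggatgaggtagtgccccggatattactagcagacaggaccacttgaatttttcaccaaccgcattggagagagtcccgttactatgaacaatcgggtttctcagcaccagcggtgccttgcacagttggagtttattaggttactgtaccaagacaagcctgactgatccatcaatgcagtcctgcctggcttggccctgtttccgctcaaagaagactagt
The windows differed widely in composition. The Astn2 window was 66.8% GC with 19 CG dinucleotides, more GC than 85.8% of the 32851 windows in the table. Ephb1 had 54.0% GC with 10 CG dinucleotides, near the median window of 52.4%. The first Lingo2 window was 25.2% GC with 0 CG dinucleotides, and 0.314% of windows had less GC. Its second window had 48.4% GC and 6 CG dinucleotides. GGGCGG occurred at 2 places in the Astn2 window and at 0 in the others, and 32.7% of all windows hold it on either strand. TATAAA occurred at 0 places in these windows and is held by 12.4% of all windows. These matches describe letters and do not identify binding sites.

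Astn2 transcript was clearly lower without PTIP. Its probe set (Gene ID 56079) lay between 4.83 and 6.12 in PTIP+ mice, with a median of 5.65, and between 3.90 and 4.69 in PTIP- mice, with a median of 4.14. The genotypes did not overlap: the highest PTIP- mouse, replicate 3, was 0.14 below the lowest PTIP+ mouse, replicate 4. Means were 5.54 ± 0.43 (SD, n = 8) and 4.25 ± 0.26 (SD, n = 10). The log2 fold change in limma with array weights was -1.42 (SE 0.18), or 37.3% of the PTIP+ value, with an adjusted p of 1.7e-07 (limma, Benjamini-Hochberg over the 58 probe sets). The unweighted difference was smaller, at -1.29. For it, a two-sided permutation test over every split of the mice (exact) gave p = 2.3e-05, the lowest value possible with these group sizes.

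Among PTIP+ mice, the lowest Astn2 values were those of both series 2 mice and of replicate 2, which lay between 4.83 and 5.18, and the highest was replicate 7 at 6.12. The genotypes were also apart within each series. PTIP- minus PTIP+ was -1.27, -0.68 and -1.77 in series 1, 2 and 3. A test of unequal genotype effects among series gave an adjusted p of 0.16 (limma interaction test). The smaller difference in series 2 came with lower PTIP+ values there, 5.00 on average against 5.58 in series 1 and 5.84 in series 3, whereas the PTIP- means of the series lay between 4.08 and 4.33. Series accounted for 65.5% of the variance of Astn2 within PTIP+ mice and 21.6% within PTIP- mice. Such shares, here and below, arise in part by chance with few mice per series, and they were not tested.

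Ephb1, the ephrin-B receptor, had lower but widely scattered values in PTIP- mice. Its probe set (Gene ID 270190) ranged from 8.69 to 9.49 in PTIP+ mice, with a median of 8.97, and from 6.70 to 9.65 in PTIP- mice, with a median of 7.98. Of the 10 PTIP- mice, 8 were below every PTIP+ mouse. The exceptions were 2 series 2 mice, replicate 4 at 8.84, inside the PTIP+ range, and replicate 5 at 9.65, above every PTIP+ mouse. The lowest PTIP- value, 6.70 in replicate 7, was also from series 2, so that this series alone spanned the PTIP- range.

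Mean Ephb1 values were 9.02 ± 0.26 (SD, n = 8) and 8.01 ± 0.89 (SD, n = 10). The log2 fold change was -0.92 (SE 0.25) with an adjusted p of 0.0010 from limma, which is under the 2-fold limit, at 52.9% of the PTIP+ value. The unweighted difference was -1.01 (exact two-sided permutation test, p = 0.0078). Within series 1, 2 and 3 it was -0.88, -0.98 and -1.25, with no overlap in series 1 and 3 (limma interaction test, adjusted p = 0.81). The 2-fold limit was passed without array weights, with series as a block (-1.05), without PTIP- replicate 4 (-1.06) or replicate 5 (-1.01), and without series 2 (-1.12), an alternative added after the data were seen.

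The scatter of each probe set was compared between the genotypes. For Ephb1, the mean absolute deviation from the genotype median was 0.20 in PTIP+ and 0.71 in PTIP- mice, a difference of 0.51 (exact two-sided permutation test, p = 0.0078; adjusted p = 0.063 over 8 probe sets). This does not pass the threshold of 0.05. Series accounted for 9.97% of the Ephb1 variance within PTIP+ and 6.51% within PTIP- mice, so the scatter lay mainly within series. For Astn2 the deviation was 0.33 in PTIP+ and 0.20 in PTIP- mice, and for Lingo2 0.40 and 0.63, with adjusted p of 0.54 for both (exact permutation test). Around series medians, the difference was 0.47 for Ephb1 (adjusted p = 0.29), -0.028 for Astn2 and 0.11 for Lingo2. With 1 mouse left out it ran from -0.17 to -0.057 for Astn2 and from 0.056 to 0.32 for Lingo2.

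Lingo2 had the most overlap of the 3 genes. Its probe set (Gene ID 242384) ranged from 3.47 to 5.46 in PTIP+ mice, with a median of 4.46, and from 2.81 to 5.62 in PTIP- mice, with a median of 3.56. PTIP- replicate 6 had the highest value of all 18 mice, and 5 of 10 PTIP- mice were above the lowest PTIP+ mouse, replicate 2. The PTIP- mice of series 3 were closely grouped between 3.16 and 3.28, below all PTIP+ mice, and those of series 2 were spread from 3.68 to 5.62. Both PTIP+ mice of series 2, at 5.46 and 4.84, were also among the 3 highest PTIP+ mice.

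Means of Lingo2 were 4.54 ± 0.58 (SD, n = 8) and 3.80 ± 0.86 (SD, n = 10). The log2 fold change was -0.82 (SE 0.25), or 56.7% of the PTIP+ value, with an adjusted p of 0.0036 from limma and under the 2-fold limit. The unweighted difference of -0.73 did not pass 0.05 in the exact two-sided permutation test (p = 0.058), which takes no account of series. A limma fit blocked by series put it at -0.96 (adjusted p = 9.9e-05). Taken by series, Lingo2 differed by -0.67, -0.58 and -1.40, with no overlap in series 3 (limma interaction test, adjusted p = 0.35). Series accounted for 61.7% of the Lingo2 variance within PTIP+ mice and 59.0% within PTIP- mice. Lingo2 passed the 2-fold limit without PTIP+ replicate 2 (-1.01) and without series 2 (-1.05).

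**Figure D1:**
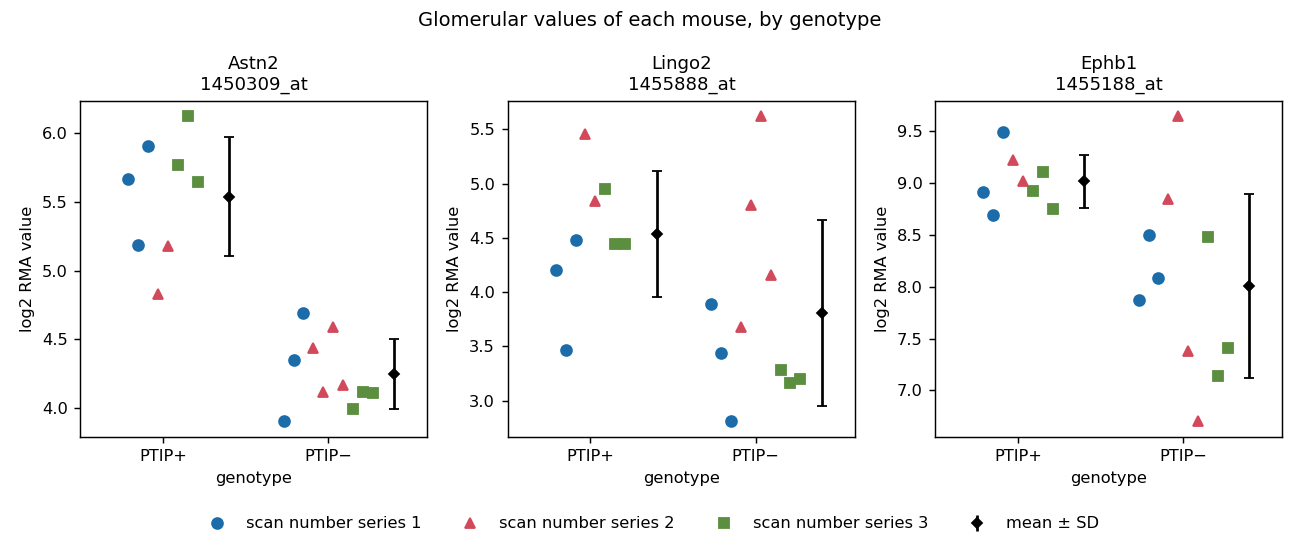
Log2 RMA values (vertical axes, each with its own range) of Astn2, Lingo2 and Ephb1 in every mouse, by genotype (horizontal axis). Symbols and colours give the scan number series, and black diamonds with bars the mean ± SD of 8 PTIP+ and 10 PTIP- mice. The genotypes are apart for Astn2, PTIP- replicate 5 of series 2 lies above all PTIP+ mice for Ephb1 at 9.65, and PTIP- replicate 6 of series 2 is the highest mouse for Lingo2 at 5.62.

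With an adjusted p of 0.05 or less, a variance over all samples above 0.1 and a 2-fold difference, 1 of the 3 genes, Astn2, was counted as lower in PTIP- mice, against 33 of the 58 probe sets (56.9%). Genotypes did not overlap for 1 of the 3, again Astn2, against 10 of 58 with PTIP- below PTIP+ (17.2%). The median log2 fold change of the 3 genes was -0.92, and of all 58 probe sets -1.10. Since the table was selected for change, nothing is read from these shares. The count of 1 is sensitive to the setting. It was 2 without array weights and with series as a block, and 3 without series 2 or without a minimum fold change. When arrays were centred on the median of the 58 probe sets, the median log2 fold change of all probe sets shifted by 0.57, and the called probe sets went from 33 lower and 19 higher to 12 lower and 20 higher. Because the 58 probe sets were selected for a genotype difference, and most were lower, this centring moves log2 fold changes upward. Smaller differences of probe sets that were lower, as in the values that follow, are therefore built in. By contrast, Lrtm2, which was higher in PTIP- mice, went from 1.78 to 2.30. Relative to that shift, Astn2 was at -0.88, Ephb1 at -0.36 (adjusted p = 0.16, limma) and Lingo2 at -0.33 (adjusted p = 0.23, limma), and the count was 0. Over all alternatives run, the highest adjusted p from limma was 6.1e-05 for Astn2 and, in that centred fit, 0.16 for Ephb1 and 0.23 for Lingo2, and the lowest 5.2e-08, 0.00012 and 9.9e-05.

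All 5 Ntrk3 probe sets were counted as lower in PTIP- mice. Their log2 fold changes were -3.10 for the most reduced one, and -2.73, -2.38, -1.91 and -1.30 for the others, which are told apart below by these values. At the most reduced probe set, PTIP+ mice lay between 8.43 and 9.50, with a median of 8.95, and PTIP- mice between 4.12 and 6.92, with a median of 5.93, without overlap. Genotypes were also apart at the probe set with -2.73. At the probe set with -2.38, PTIP- replicate 6, at 7.77, lay inside the PTIP+ range of 7.12 to 8.18. This mouse was the highest of all for Lingo2. Of the 10 PTIP- mice, 1 was above the lowest PTIP+ mouse at the probe set with -1.91 and 6 were at that with -1.30.

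How the change of each gene stood to that of Ntrk3 depended on the Ntrk3 probe set. Within each array, the value of 1 probe set was subtracted from that of another. The genotype difference of these differences, without array weights, was tested over 6 pairs, which tests unequal change and sets no level against another. Against the most reduced Ntrk3 probe set, the difference was 1.89 for Astn2, 2.16 for Ephb1 and 2.44 for Lingo2. That probe set had the largest change of the 5 and was chosen with this known, so no test of these values is given. At the probe set with -2.73 they were 1.18, 1.46 and 1.74, and all 3 passed (exact two-sided permutation tests, adjusted p = 0.0031, 0.012 and 0.00069). At the probe set with -2.38 the differences were 0.70, 0.98 and 1.26, and at that with -1.91 they were 0.41, 0.69 and 0.96, and only those of Lingo2 passed (exact two-sided permutation tests, adjusted p = 0.00041 and 0.016). Against the least changed one, with -1.30, they were -0.17, 0.11 and 0.39, and 0 of 3 passed. PTIP+ means were 5.54 for Astn2, 4.54 for Lingo2 and 9.02 for Ephb1, and from 6.21 to 8.93 for the Ntrk3 probe sets. Whether level bears on the size of a change was not tested.

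Among the 3 genes themselves, unequal change was not detected. The unweighted difference was -0.56 for Astn2 against Lingo2, -0.28 for Astn2 against Ephb1 and 0.28 for Lingo2 against Ephb1 (exact two-sided permutation tests, adjusted p = 0.27, 0.55 and 0.56). These tests take no account of series, and their p-values do not show that the changes were equal. In limma with array weights the log2 fold changes were -1.42 for Astn2, -0.82 for Lingo2 and -0.92 for Ephb1, and their differences were not tested. With 1 mouse left out, the unweighted differences ran from -0.79 to -0.39, from -0.41 to -0.082 and from 0.0066 to 0.40. The means of the differences within series were -0.35, -0.20 and 0.15. Astn2 against Lingo2 was negative in each series, at -0.59, -0.094 and -0.37. The sign turned in series 2 for Astn2 against Ephb1 (0.30) and in series 3 for Lingo2 against Ephb1 (-0.15).

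**Figure D2:**
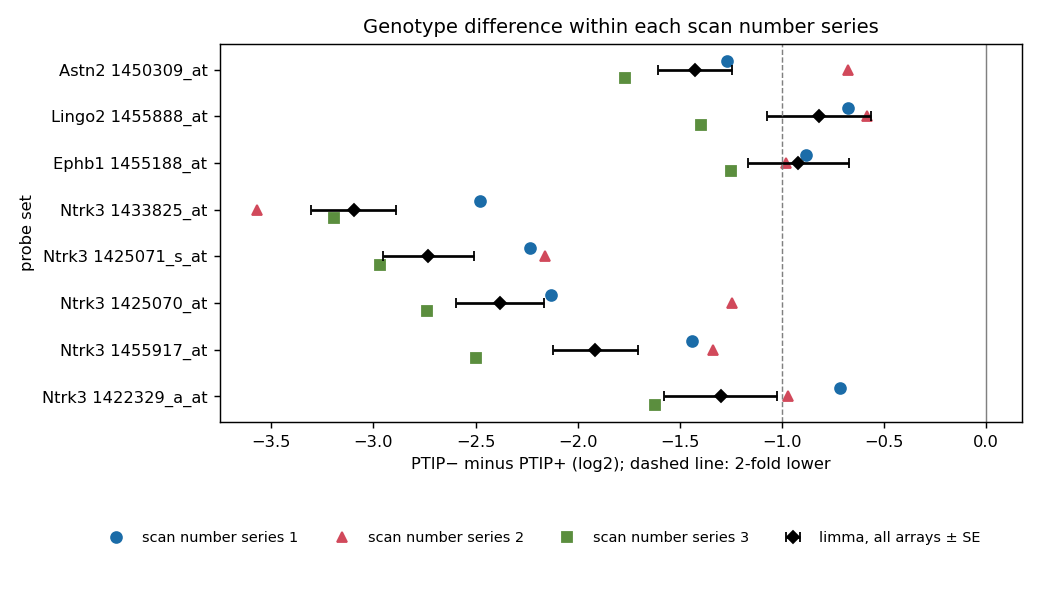
Difference between PTIP- and PTIP+ means in log2 units (horizontal axis) for each probe set (vertical axis) within scan number series 1, 2 and 3 (coloured symbols), and the limma log2 fold change over all arrays with its SE (black). All differences are below 0. The most reduced Ntrk3 probe set lies between -3.57 and -2.48, and the 3 genes lie between -1.77 and -0.58.

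Whether the 3 genes varied together from mouse to mouse was examined within each genotype, since pooling would mix in the genotype difference. Pearson's r and Spearman's rho were computed for the 3 pairs of genes and for each gene with the 5 Ntrk3 probe sets, which gives 18 relations in each genotype and 36 in all. In PTIP+ mice, 0 of 18 relations passed an adjusted p of 0.05, and 0 had an unadjusted p of 0.05 or less, by Pearson or Spearman. In PTIP- mice, 1 of 18 passed by Pearson and 0 by Spearman, with 3 and 2 at an unadjusted p of 0.05 or less.

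The 3 genes did not covary detectably with each other. Lingo2 and Ephb1 had r = 0.50 in PTIP+ mice (rho = 0.69, permutation p = 0.20 and 0.069; adjusted p = 0.95 and 0.83) and r = 0.05 in PTIP- mice (rho = 0.05, permutation p = 0.89 for both, adjusted p = 0.97 and 0.98). Without the 2 mice farthest from the Ephb1 median, r was 0.63 in PTIP+ and -0.24 in PTIP- mice. For Astn2 and Lingo2, r was -0.23 in PTIP+ and 0.11 in PTIP- mice, and for Astn2 and Ephb1 0.17 and 0.02, with adjusted p of 0.95 or more (permutation tests). For these 3 pairs in the order above, r in PTIP+ mice was 0.70, 0.37 and 0.74 with series means subtracted. In PTIP- mice it was -0.11, -0.21 and -0.11, and the lowest adjusted p of these was 0.69 (exact permutation within series). Lingo2 with Ephb1 in PTIP+ mice had r of 0.21 to 0.78 with 1 mouse left out and 0.74 with centred arrays. With 8 or 10 mice, moderate correlations could not be resolved.

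Lingo2 ran with the Ntrk3 probe set of log2 fold change -2.38 among PTIP- mice, with r = 0.91 (n = 10, permutation p = 0.0010, adjusted p = 0.037) and rho = 0.77 (permutation p = 0.013, adjusted p = 0.45). The 4 PTIP- mice of series 2 spanned most of this relation: replicate 6 was highest for both, at 5.62 for Lingo2 and 7.77 for Ntrk3, followed by replicate 5 at 4.80 and 6.25 and replicate 7 at 4.16 and 6.02. Replicates 6, 5 and 7 had low array weights, at 0.259, 0.517 and 0.368, and r takes no account of these weights. Replicate 4 had a low Ntrk3 value of 5.00, while its Lingo2 value of 3.68 was above the PTIP- median. Without replicates 6 and 5, the 2 mice farthest from the Ntrk3 median, r was 0.58 (permutation p = 0.13), where the narrower range by itself lowers r. Without replicate 6 alone it was 0.78, and without replicate 5 alone 0.91 (permutation tests, adjusted p = 0.48 and 0.22). Of the 10 values with 1 PTIP- mouse left out, 7 did not pass after adjustment. After the mean of each series was subtracted, r was 0.88 (exact permutation within series, p = 0.0093, adjusted p = 0.33). Without series 2, r was 0.45 over the other 6 mice (exact permutation, p = 0.36). No single series holds the 6 mice needed for a value of its own. In PTIP+ mice r was 0.14 (n = 8, exact permutation p = 0.75), and the difference between genotypes was not tested.

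The other Ntrk3 probe sets did not share 1 relation with Lingo2 in PTIP- mice. For those with log2 fold changes of -1.91, -2.73 and -1.30, r was 0.81, 0.66 and 0.27, and it was -0.56 at the most reduced probe set (permutation p = 0.0087, 0.043, 0.47 and 0.10; adjusted p = 0.16, 0.52, 0.95 and 0.90). Without the 2 farthest mice, r was 0.60, -0.11, 0.09 and -0.85, and after subtracting series means 0.58, 0.90, 0.68 and -0.08. The Ntrk3 probe sets themselves had r between 0.65 and 0.96 with each other in PTIP+ mice and between -0.76 and 0.89 in PTIP- mice, given as a description.

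No relation of Astn2 or Ephb1 with Ntrk3 passed the threshold in either genotype. For Astn2, r with the 5 Ntrk3 probe sets lay between -0.01 and 0.23 in PTIP+ and between -0.27 and 0.33 in PTIP- mice. These values depend on the series: with series means subtracted, r in PTIP+ mice was negative for all 5, between -0.92 and -0.60 (lowest p = 0.028, adjusted p = 0.33, exact permutation within series). With so few arrangements of PTIP+ mice within series, no single relation could pass after adjustment. For Ephb1 it lay between -0.54 and -0.35 in PTIP+ and between -0.26 and 0.29 in PTIP- mice. Without the 2 farthest mice, several of the Ephb1 values changed sign: in PTIP+ mice r was 0.37, 0.43 and 0.061 for the probe sets with -2.73, -1.91 and -1.30, and in PTIP- mice it was -0.43 for the most reduced one and 0.22, 0.72 and -0.29 for those with -2.73, -1.91 and -1.30 (at -1.91, permutation p = 0.043, adjusted p = 0.77). With all mice, the lowest permutation p among these 20 relations was 0.16, for Ephb1 and the Ntrk3 probe set with -2.38 in PTIP+ mice.

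**Figure D3:**
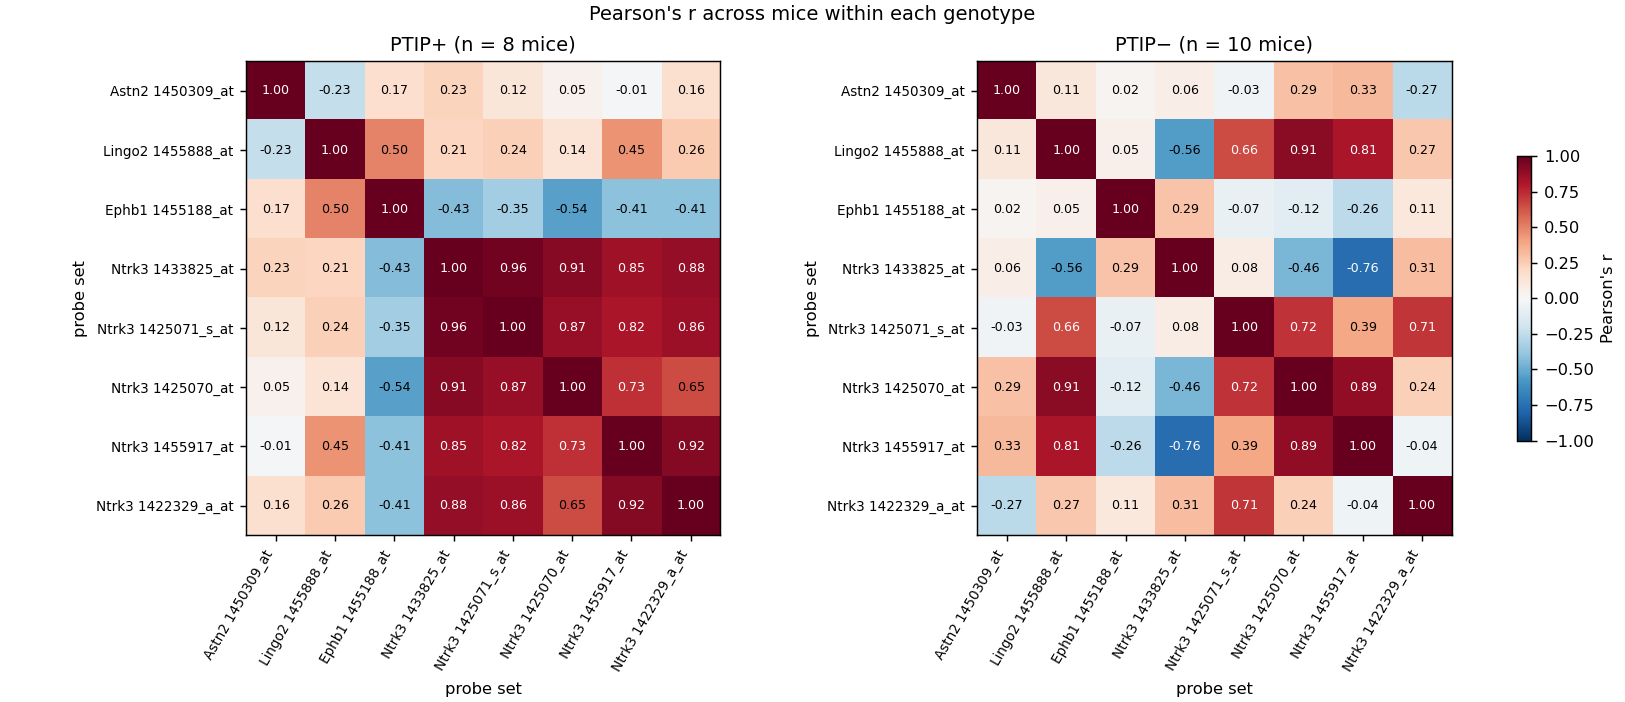
Pearson's r (colour and printed values) between log2 values of the 3 genes and the 5 Ntrk3 probe sets (both axes) across 8 PTIP+ mice (left) and 10 PTIP- mice (right). Among relations of the 3 genes, the value of 0.91 for Lingo2 with the Ntrk3 probe set of log2 fold change -2.38 in PTIP- mice is the highest.

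**Figure D4:**
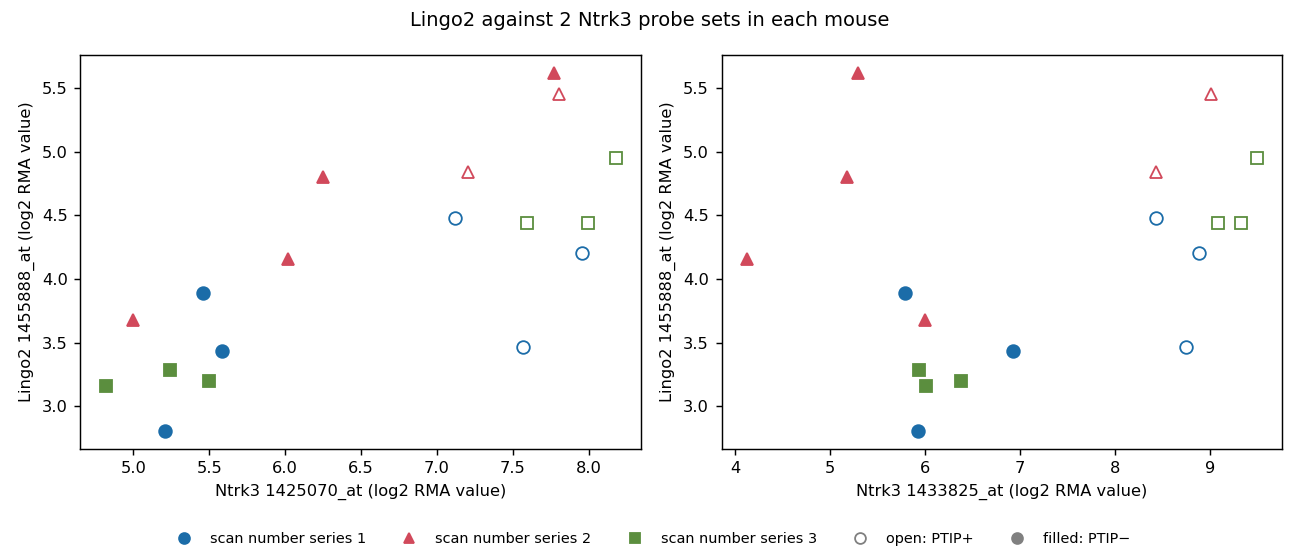
Lingo2 (vertical axes) against the Ntrk3 probe set of log2 fold change -2.38 (left) and the most reduced Ntrk3 probe set (right) in log2 RMA values, 1 symbol per mouse, with open symbols for 8 PTIP+ mice, filled symbols for 10 PTIP- mice and shapes for scan number series. In PTIP- mice r is 0.91 on the left and -0.56 on the right. The highest mouse for Lingo2 is the series 2 mouse PTIP- replicate 6, at 5.62.

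The probe sets most like each gene over all 18 mice were found from Pearson's r of deviations from the genotype mean. This is a description without array weights that shares the arrays and their series. For Astn2 these were 2 probe sets without a symbol in the table, at 0.72 and 0.71, then Lif, a cytokine of the interleukin 6 family, at 0.60, A330068G13Rik at 0.51 and Adcy5, an adenylyl cyclase, at 0.48. After series means were subtracted, these were 0.48, 0.45, 0.22, -0.02 and 0.62. For Ephb1 the most alike was Mamdc2, at 0.66, followed by the 2 probe sets of Stx11, a syntaxin of vesicle fusion, at 0.57 and 0.51, LOC627626 at 0.47 and a probe set without a symbol at 0.40. After subtraction of series means, these 5 were at 0.78, 0.71, 0.53, 0.43 and 0.37. Mamdc2 and Stx11 had higher values in PTIP- mice, with log2 fold changes of 1.12, 1.32 and 1.27, although their deviations within genotype ran with those of Ephb1.

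Lingo2 had closer companions than Astn2 and Ephb1, though for the closest one only before series means were subtracted. A probe set without a symbol was at 0.85, Il6ra, the interleukin 6 receptor, at 0.83, 1 of the 2 probe sets of the sialyltransferase St6galnac3 at 0.82, Samd5 at 0.81 and the Ntrk3 probe set with -2.38 at 0.75. After subtraction of series means these were 0.72, 0.77, 0.70, 0.66 and 0.75. All 5 had negative log2 fold changes, from -2.81 for the one without a symbol to -1.09 for that of St6galnac3. The most reduced Ntrk3 probe set was at -0.39 with Lingo2 over the 18 mice and at -0.012 after subtraction of series means, and Ephb1 and Astn2 at 0.10 and -0.05.

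Of a list of 75 other genes of axon guidance, neurotrophin signalling and neuronal adhesion, 3 had a probe set in the table, and the rest were not analysed here. Since the table was selected for change, this count is not independent evidence of a direction. Nell2, a secreted glycoprotein that guides axons through Robo3, was lower in PTIP- mice without overlap, with a log2 fold change of -1.41 (SE 0.24, adjusted p = 6.6e-06, limma). Lrrc4, a postsynaptic adhesion protein that binds netrin-G2, was lower by a log2 fold change of -1.32 (SE 0.25, adjusted p = 2.5e-05, limma), with 8 of 10 PTIP- mice above the lowest PTIP+ mouse. By series its differences were -1.07, -0.13 and -1.28 (limma interaction test, adjusted p = 0.070). Lrtm2, a leucine-rich repeat membrane protein, was higher in PTIP- mice, with a log2 fold change of 1.78 (SE 0.32, adjusted p = 1.4e-05, limma). Thus 2 of the 3 fell and 1 rose, against 33 (56.9%) and 19 (32.8%) of all 58 probe sets.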

How the data were processed

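The authors normalized the arrays by RMA, fitted weighted linear models in limma, and deposited log2 values of the 58 probe sets selected for variance (above 0.1), false discovery rate (up to 0.05) and fold (2 or more). The versions the authors used are not given in the sources used here. The deposited table also holds the authors' t-statistic, p-value and fold change, which were not used. Other probe sets and detection calls were not analysed here, so signal over background is unknown, and precision is limited by how many arrays there were. The closest pair of arrays differed by up to 0.80 in a probe set, so none was a duplicate.

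Genotypes and replicate numbers came from the sample titles, and scan number series from the scan names. The log2 values were fitted in R 4.3.3 by limma 3.58.1, using lmFit, arrayWeights estimated from the 58 probe sets, and eBayes. The false discovery rate (Benjamini-Hochberg) was taken over all 58, and a probe set was counted by the thresholds above. Exact permutation tests used all 43758 splits of the mice, and correlations all pairings of 8 mice or 100000 random pairings of 10 (numpy 2.4.6, scipy 1.17.1, Python 3.11.15). Adjusted p-values of correlations, unequal change and spread cover families of 36, 6 and 8. The steps were tested on simulated data. Named genes were all probe sets of Astn2, Lingo2, Ephb1 and Ntrk3, those of the list of 75 genes, and the 5 most similar probe sets per gene. Of the planned marker genes, 1 was left out. Members and lists were chosen with earlier results of these data known.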

Additional observations from a re-analysis of the deposited data

Results flagged for a closer look

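Of 22 groups of values examined for a mouse far from the others, 1 stood apart, and chance alone gives about 1 in 20. In PTIP- mice, replicate 6 had a value of 7.77 at the Ntrk3 probe set of log2 fold change -2.38, the highest of its group, with the nearest other mouse at 6.25. The genotype effect on the Ntrk3 probe set of log2 fold change -1.91 differed between scan number series (adjusted p = 0.047, interaction test in limma), at -1.44, -1.34 and -2.50 in series 1, 2 and 3. Without array weights that adjusted p was 0.20.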

How the results depend on the processing

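Alternatives changed the array weights, the arrays, the prior, the thresholds or the mice used. The cause of the changes below was not tested. Ntrk3 probe sets are told apart by their log2 fold change in the main fit. With arrays centred on their median, Astn2 was at -0.88 and the Ntrk3 probe set of -1.30 at -0.85, both under 2-fold, and 0 of the 3 genes, 32 of 58 probe sets and 1 of the 3 list genes were counted. Ephb1 passed 2-fold without array weights (-1.01), with series as a block (-1.05) and without series 2 (-1.12), as Lingo2 did without series 2 (-1.05). The genes counted were 2 without array weights, 2 with series as a block, 2 by exact permutation, 3 without series 2, 3 without a fold limit and 0 at a log2 fold change of 1.5, which left 20 probe sets and 1 list gene. The interaction of the Ntrk3 probe set of -1.91 had an adjusted p of 0.20 without array weights (limma).

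The replicate block over replicates 1 to 8 gave log2 fold changes of -1.34 for Astn2, -0.73 for Lingo2 and -0.80 for Ephb1, counted 1 of the 3 genes and 48 of 58 probe sets, and moved no call of these genes. Whether equal numbers pair the mice could not be told: 5 of 8 same-numbered pairs had a correlation of deviations over 0.1, and 6 of 16 mice correlated best with their own number. The counts expected without pairing were not computed, and same-numbered replicates 1 to 5 and 8 also share a scan number series.

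Leaving out 1 mouse at a time gave -1.54 to -1.30 for Astn2, -1.01 to -0.70 for Lingo2, -1.06 to -0.77 for Ephb1 and -1.58 to -0.97 for the Ntrk3 probe set of -1.30. The Ntrk3 probe set of -1.30 was under 2-fold without PTIP+ replicate 8. The genes counted were 1 to 2. Relations past the threshold were 0 to 1, and 0 by Spearman, with series means removed (where no single relation in PTIP+ mice could pass), without the 2 farthest mice and without series 2. For Lingo2 with the Ntrk3 probe set of -2.38 in PTIP- mice, r was then 0.77 (rho), 0.88, 0.58 and 0.45, and 0.78 to 0.93 with 1 mouse left out, with an adjusted p over 0.05 without PTIP- replicate 1, 2, 5, 6, 7, 8 or 9 (permutation test).

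Relations under the threshold changed sign. Astn2 with Lingo2 in PTIP+ mice had r of 0.37 with series means removed, 0.73 without series 2 and -0.75 to 0.32 with 1 mouse left out. In PTIP- mice these were -0.21, -0.73 and -0.39 to 0.50, and -0.43 without the 2 farthest mice. Astn2 with Ephb1 in PTIP+ mice had -0.42 without the 2 farthest mice and -0.14 to 0.53 with 1 left out. The same pair kept its sign but rose to 0.74 with series means removed and to 0.70 without series 2. In PTIP- mice it had -0.11 with series means removed, -0.12 with centred arrays and -0.067 to 0.18 with 1 left out. Lingo2 with Ephb1 in PTIP- mice had -0.11, -0.24, -0.011 and -0.31 to 0.36 with series means removed, without the 2 farthest mice, with centred arrays and with 1 left out. Lingo2 with Ntrk3 in PTIP- mice had 0.0062 (most reduced probe set) and -0.36 (probe set of -1.91) without series 2, -0.11 (probe set of -2.73) without the 2 farthest mice, and -0.0070 to 0.38 (probe set of -1.30) with 1 left out. Astn2 with Ntrk3 in PTIP+ mice was negative with series means removed, at -0.67 (most reduced probe set), -0.63 (-2.73), -0.60 (-2.38), -0.65 (-1.91) and -0.92 (-1.30). Only the probe set of -1.91 was already negative before, at -0.011. Ephb1 with the Ntrk3 probe set of -1.91 in PTIP- mice went from -0.26 to 0.72 without the 2 farthest mice (permutation p = 0.043, adjusted p = 0.77).

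With another Ntrk3 probe set in place of the most reduced one, the change of Astn2 minus that of Ntrk3 was 0.70 at the probe set of -2.38, 0.41 at the probe set of -1.91 and -0.17 at the probe set of -1.30, that of Ephb1 0.98, 0.69 and 0.11, and that of Lingo2 0.39 at the probe set of -1.30, none past the threshold. The spread of Ephb1 differed by 0.47 around series medians (adjusted p = 0.29, exact permutation test), and by 0.39 to 0.57 with 1 mouse left out and passed the threshold without PTIP+ replicate 3 or PTIP- replicate 1 or 3 (exact permutation test). For Ntrk3, spread differed by 0.083 (probe set of -2.73), 0.078 (probe set of -1.91) and 0.012 (probe set of -1.30) around series medians, and by -0.16 to 0.058 (probe set of -1.91) and -0.41 to -0.26 (probe set of -1.30, past the threshold without PTIP- replicate 3) with 1 mouse left out.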
